A study of Rattus norvegicus with 6 samples.

Results

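Rplp1, Rpl13a and Eif4b, 3 genes of the machinery that makes protein, are 3 of the 38 genes that transcript probes named on an array for PIWI-interacting RNAs (piRNAs, small RNAs best known from the germline), and were read by 7 of its 39886 non-control probes. The probes were chosen by the transcript identifier they carry: 3 name the rat Rplp1 transcript (probe 1, CUST_31_PI422140147, probe 2, CUST_32_PI422140147, and probe 3, CUST_33_PI422140147), 3 name Rpl13a (probe 1, CUST_13_PI422140147, probe 2, CUST_14_PI422140147, and probe 3, CUST_15_PI422140147) and 1 names Eif4b (A_44_P1033541). Only the Eif4b probe has a name that starts with A_, so a rule by that prefix would have left 1 probe, and the 6 custom probes were kept because their identifiers are those of the genes. The 7 are among 89 transcript probes, and each was printed as 10 spots. No probe sequence was at hand, so the exon or untranslated region that a probe reads is not stated, and transcripts of near-identical gene copies cannot be told apart. Among the 38 named genes there were 0 others of a translation list and 0 of 26 cell type markers. The list held ribosomal proteins, initiation, elongation and termination factors, poly(A)-binding proteins and the mTOR pathway. Only 61 of the 89 transcript probes matched a RefSeq symbol, so the others could hold such genes. From the named genes, neither the wider pathway nor the make-up of the islets could be read.

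RNA came from pancreatic islets, in which beta cells make and release insulin, of adult rats (3 months of age, 3 samples of 1 animal each) and of rat pups aged 10 days (P10, 3 samples that each pooled 2 pups). Strain and sex are not stated in the labels used here, and the labels name no treatment. RNA ligase joined the dye Cy3 to the 3′ ends of total RNA, so a probe reads any labelled RNA or RNA fragment that binds to it and not only the full messenger. The comparison asks what differs in adult islets from islets soon after birth, when beta cells have yet to mature.

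Ribosomal proteins build the small and large subunits of the ribosome. Rplp1 is an acidic protein of the stalk of the large subunit, which recruits the elongation factors. Rpl13a is also a protein of the large subunit, its introns host small nucleolar RNAs, and in human monocytes the protein is known to leave the ribosome and silence inflammatory messengers. Eif4b is an initiation factor that stimulates the helicase Eif4a, which unwinds the start of messengers, and it is phosphorylated downstream of mTOR. Messengers of ribosomal proteins are known to begin with a pyrimidine tract, through which mTOR signalling controls their translation, and Rplp1 and Rpl13a are often used as reference genes in expression studies.

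The start regions of both ribosomal protein genes are shown because pyrimidine tracts of this kind are known from the starts of such messengers. Each line gives 30 bases of the gene's strand from the RefSeq promoter table of the build GRCr8, from 20 bases before to 10 bases after the annotated start, at chr8:71290863-71290892 (minus strand) for Rplp1 and at chr1:104748904-104748933 (minus strand) for Rpl13a, with unbroken runs of at least 8 letters that are C or T in capitals.
Rplp1: tgcgcgcaggcgcatgtgaTCCTTTCCTCa
Rpl13a: caagaCCTCTTCCTTTCCTaggcggctgcc
The run of 10 letters in Rplp1 lay at positions -1 to 9 and covered the annotated start. The run of 14 letters in Rpl13a lay at positions -15 to -2, wholly before the start used in the table. The annotated span of the gene on GRCr8 reaches to position 104748975, upstream of this whole window. The 2 annotations thus differ, and whether the run is part of the messenger is left unsettled. Of 33469 promoters in the table, 12.01% held such a run in the same window on the gene's strand and 13.0% on the other strand. Of the 3 genes, 2 matched the table, and Eif4b was not matched. Whether any probe covers these tracts is not known, and the array does not read the translation of the messengers.

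The scan identifiers split the arrays into 2 groups, taken here as 2 slides. The labels used here name no slide, so slide 1 and slide 2 stand for these scan groups. Adult 1 shared slide 1 with the 3 P10 arrays, whereas slide 2 carried Adult 2 and Adult 3 alone, which ties slide partly to age. Across the 11981 probes with a test result, Adult 1 correlated more closely with P10 1 (r = 0.942) than with Adult 2 (0.919) or Adult 3 (0.911), whereas Adult 2 and Adult 3 correlated at 0.973 and P10 2 and P10 3 at 0.949. Each r is taken across probes, and probes are not independent replicates. The signal level that served as the scale of each array, the 75th percentile over the piRNA probes detected on every array, was 139, 108 and 101 in Adult 1, Adult 2 and Adult 3, against 175, 95.7 and 140 in P10 1, P10 2 and P10 3. A probe's level is its log2 processed signal, averaged over spots, minus log2 of this scale. It states brightness relative to the detected piRNA probes of the same array.

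Signal well above background was found for every one of the 7 probes on every array, with no saturated spot. The scanner signals, before any scaling, are given first because the scale itself differed up to 175 against 95.7 within the P10 arrays. Eif4b had a processed signal of 882 in Adult 1, 393 in Adult 2 and 425 in Adult 3, against 892, 1086 and 1431 in P10 1, P10 2 and P10 3. Adult 1 lay close to the lowest P10 array, and the arrays of slide 2 lay far below all others.

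Rpl13a probe 1 read 119, 53.8 and 55.5 in Adult 1, Adult 2 and Adult 3, against 139, 134 and 125 in P10 1, P10 2 and P10 3. Rpl13a probe 2 read 184, 101 and 101 in the adult arrays, against 212, 164 and 183 in the P10 arrays. Rpl13a probe 3 read 84.9, 51.6 and 50.7 in the adult arrays, against 105, 88.8 and 106 in the P10 arrays. In all 3 Rpl13a probes Adult 2 and Adult 3 were the lowest arrays, and Adult 1 lay within the P10 range in probe 2 and slightly below it in probes 1 and 3.

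Rplp1 probe 1 read 492, 401 and 393 in Adult 1, Adult 2 and Adult 3, against 569, 633 and 679 in P10 1, P10 2 and P10 3. Rplp1 probe 3 read 236, 188 and 201 in the adult arrays, against 247, 324 and 339 in the P10 arrays. In these probes every adult array lay below every P10 array, by a small margin for Adult 1 in probe 3. Rplp1 probe 2 read 805, 733 and 732 in the adult arrays, against 840, 744 and 705 in the P10 arrays, and the ages overlapped.

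**Figure D1:**
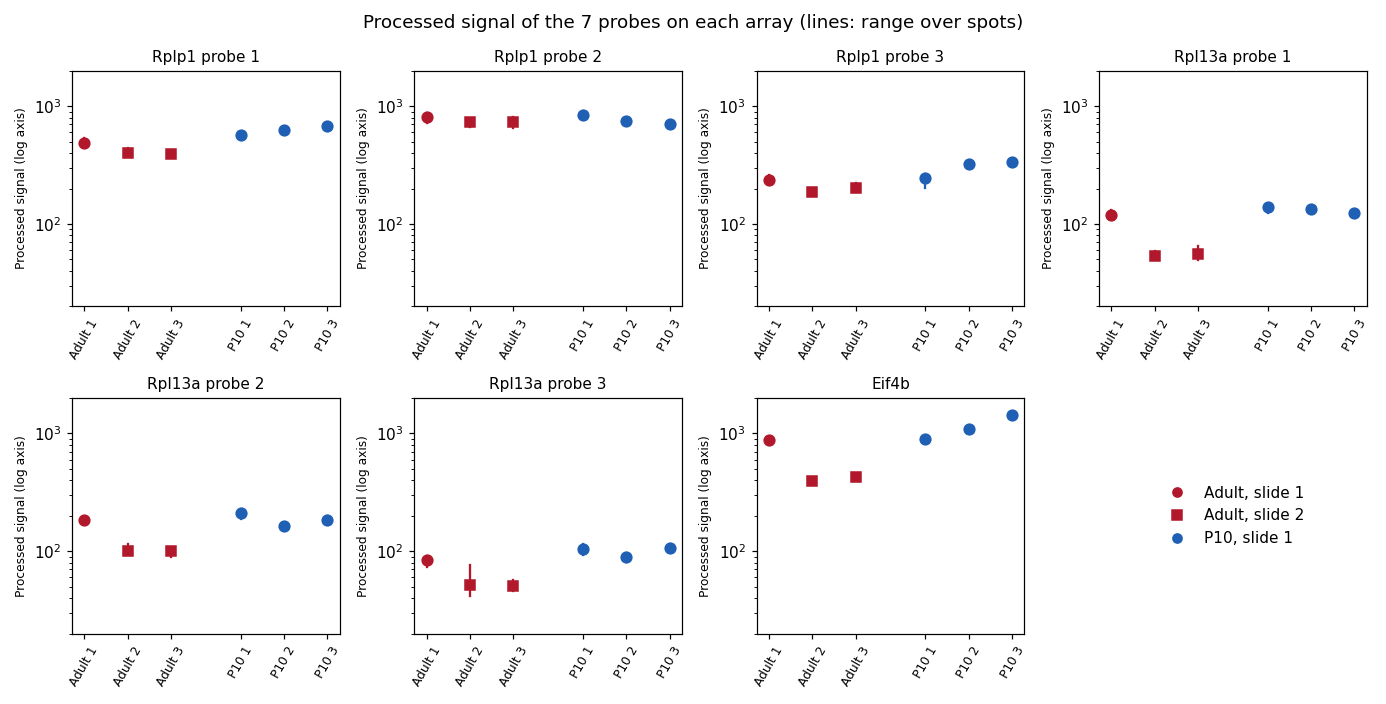
Processed signal of each probe (log axis, arbitrary scanner units) on the 3 adult arrays (red, squares for slide 2) and the 3 P10 arrays (blue). Points are means over unflagged spots on the log2 scale and vertical lines span the lowest to the highest spot. Adult 2 and Adult 3 are the lowest arrays in every panel except that of Rplp1 probe 2, where all arrays lie between 705 and 840.

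Repeat spots agreed closely. The SD over the spots of 1 probe on 1 array was between 0.022 and 0.24 on the log2 scale, and its median per probe was between 0.044 (Eif4b) and 0.095 (Rpl13a probe 3).

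After scaling, none of the 7 probes passed the threshold of 0.05 for adult minus P10 (limma with Benjamini-Hochberg adjustment over 11981 probes, two-sided, 3 arrays per age), where 6.05% of all tested probes did. Of the 7, 0 also had an unadjusted p below 0.05, against 28.1% of all tested probes. The differences of 6 probes were negative and that of 1 was positive, with a median of -0.38 on the log2 scale over the 7 probes and -0.04 over all tested probes, of which 6201 were negative. In bulk islet RNA, fewer cells of a type and less RNA per cell cannot be told apart.

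The Eif4b level was 2.66, 1.86 and 2.08 in Adult 1, Adult 2 and Adult 3, against 2.35, 3.50 and 3.35 in P10 1, P10 2 and P10 3. P10 1 lay between the adult arrays, so the ages overlapped. The means were 2.20 ± 0.41 in adult and 3.07 ± 0.63 in P10 islets (SD, n = 3 each), a difference of -0.87 ± 0.41 (SE, 95% interval -1.82 to 0.08; limma adjusted p = 0.210). This was the most negative of the 7 differences, and 20.1% of all tested probes had one at least as negative.

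Rpl13a probe 1 was at -0.23, -1.01 and -0.86 in Adult 1, Adult 2 and Adult 3, against -0.33, 0.49 and -0.16 in P10 1, P10 2 and P10 3, and differed by -0.70 ± 0.36 (SE, 95% interval -1.54 to 0.14; limma adjusted p = 0.246). Probe 2 was at 0.40, -0.10 and 0.002 in the adult arrays, against 0.27, 0.77 and 0.39 in the P10 arrays, and differed by -0.38 ± 0.30 (95% interval -1.08 to 0.33; limma adjusted p = 0.447). Probe 3 was at -0.72, -1.07 and -0.99 in the adult arrays, against -0.74, -0.11 and -0.40 in the P10 arrays, and differed by -0.51 ± 0.30 (95% interval -1.21 to 0.19; limma adjusted p = 0.304). All 3 probes of Rpl13a thus had Adult 1 inside the P10 range and the 2 arrays of slide 2 below every array of slide 1.

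Rplp1 probe 1 was at 1.82, 1.89 and 1.97 in Adult 1, Adult 2 and Adult 3, against 1.70, 2.73 and 2.28 in P10 1, P10 2 and P10 3, and differed by -0.34 ± 0.34 (SE, 95% interval -1.13 to 0.45; limma adjusted p = 0.539). Probe 3 was at 0.76, 0.80 and 1.00 in the adult arrays, against 0.50, 1.76 and 1.28 in the P10 arrays, and differed by -0.32 ± 0.38 (95% interval -1.20 to 0.55; limma adjusted p = 0.606). Probe 2 was at 2.53, 2.76 and 2.86 in the adult arrays, against 2.26, 2.96 and 2.33 in the P10 arrays, and differed by 0.20 ± 0.31 (95% interval -0.53 to 0.93; limma adjusted p = 0.707). For all 3 Rplp1 probes the adult arrays lay between the lowest and the highest P10 array, and the P10 arrays were spread more widely (SD 0.51, 0.38 and 0.64 for probes 1, 2 and 3) than the adult arrays (0.07, 0.17 and 0.13). Without scaling the SDs were 0.18, 0.08 and 0.17 in adult and 0.13, 0.13 and 0.25 in P10 arrays, so for probe 1 the adult arrays were then the more widely spread. The exact permutation test on the 7 probes gave two-sided p-values between 0.2 and 0.5, where 0.1 is the smallest that 3 against 3 arrays allow. The intervals of all 7 probes hold 0 and are wide, so they do not show equal levels at both ages.

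**Figure D2:**
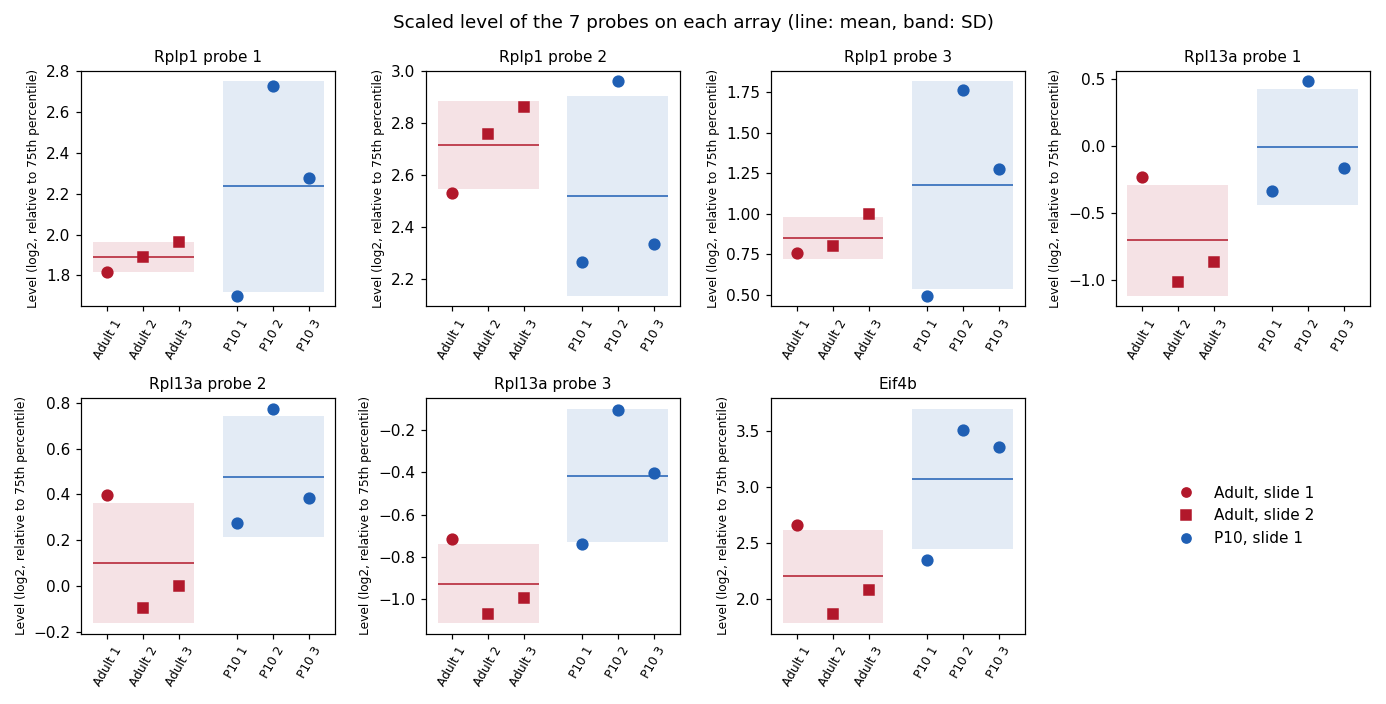
Level of each probe (log2, relative to the array's 75th percentile) on the 3 adult arrays (red, squares for slide 2) and the 3 P10 arrays (blue), with the mean (line) and SD (band) of each age. The y axes differ between panels. The ages overlap in every panel, and Adult 2 and Adult 3 lie below all other arrays for Eif4b and the 3 Rpl13a probes.

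None of the 7 probes had all adult levels below all P10 levels, against 14.5% of tested probes. Of the 56 other transcript probes tested, 2 did (3.57%). For 4 of the 7, Eif4b and the 3 Rpl13a probes, both arrays of slide 2 lay below all 4 arrays of slide 1, a pattern that 24.1% of tested probes showed. It was present in 18 of the 56 other transcript probes tested (32.1%). Within slide 1, where Adult 1 is the only adult array, the difference was -0.41 for Eif4b and -0.23, -0.08 and -0.30 for Rpl13a probes 1, 2 and 3, whereas Adult 2 and Adult 3 differed from the same P10 arrays by -1.10, -0.93, -0.52 and -0.61. The gap between Adult 1 and the other adult arrays depended on the scale. With the median of the detected probes of 10 spots as the scale, Eif4b was at 2.56, 2.53 and 2.54 in Adult 1, Adult 2 and Adult 3, against 2.67, 3.64 and 3.75 in the P10 arrays, and Rpl13a probe 1 was at -0.34, -0.34 and -0.40, against -0.01, 0.62 and 0.23. On that scale Adult 1 lay below every P10 array in all 7 probes, but the share of all tested probes that did so was not computed. A change of scale shifts every probe of an array by the same amount, so this count is not read as a trait of the 7. Slide 2 lay below slide 1 on that scale in 2 of the 7 (Eif4b and Rpl13a probe 1), where 11.8% of tested probes showed this. On the processed signal without scaling it did so in 6 of the 7, where 35.7% of tested probes did. For Adult 2 and Adult 3 slide and animal cannot be told apart. For Rplp1 the values within slide 1 were -0.42, 0.01 and -0.42 for probes 1, 2 and 3, and those of Adult 2 and Adult 3 were -0.31, 0.29 and -0.28.

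Without P10 1 and Adult 1, the pair that correlated most closely across ages, Eif4b differed by -1.46 and was the only probe of the 7 called (limma adjusted p = 0.016), in a fit that called 30.5% of all tested probes and 17.9% as lower in adult. In that fit every adult array lies on slide 2 and every P10 array on slide 1, so age and slide cannot be told apart. Leaving out the pair most alike across ages also favours a wider gap between the ages in the arrays that remain. Over the other 21 alternatives the adjusted p of Eif4b (limma) stayed above 0.05. Leaving out 1 array at a time moved the Eif4b difference between -1.23 and -0.65. It moved Rplp1 probe 1 between -0.61 and -0.10, probe 2 between 0.07 and 0.42 and probe 3 between -0.66 and -0.03, and Rpl13a probes 1, 2 and 3 between -0.93 and -0.45, -0.52 and -0.23, and -0.67 and -0.36. The value nearest 0 came without P10 2 for each of the 6 probes with a negative difference.

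Whether the ages overlapped depended on how the arrays were put on 1 scale. On the processed signal without any scaling, 5 of the 7 probes (Rplp1 probes 1 and 3, Rpl13a probes 1 and 3 and Eif4b) had every adult array below every P10 array, against 16.1% of tested probes. The differences were then -1.08 ± 0.42 for Eif4b (SE, 95% interval -2.07 to -0.08; limma adjusted p = 0.185), -0.91, -0.58 and -0.72 for Rpl13a probes 1, 2 and 3, and -0.55, -0.010 and -0.53 for Rplp1 probes 1, 2 and 3. None was called (limma), and the exact permutation test gave its smallest two-sided p, 0.1, for the 5 probes whose ages did not overlap. The median of all tested probes was at -0.25 on this scale. Relative to that median, 6 of the 7 differences stayed negative, and that of Rplp1 probe 2 lay above it. With the median of the detected probes of 10 spots as the scale, 3 of the 7 had adult levels below all P10 levels (Eif4b and Rpl13a probes 1 and 2), against 14.7% of tested probes. Rplp1 probe 2 changed sign, at -0.010 unscaled, -0.11 with quantile normalization and -0.32 with normexp background correction. With normexp and spots of uneven background left out, it differed by 0.08. The other 6 probes stayed negative under all 22 alternatives tried.

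**Figure D3:**
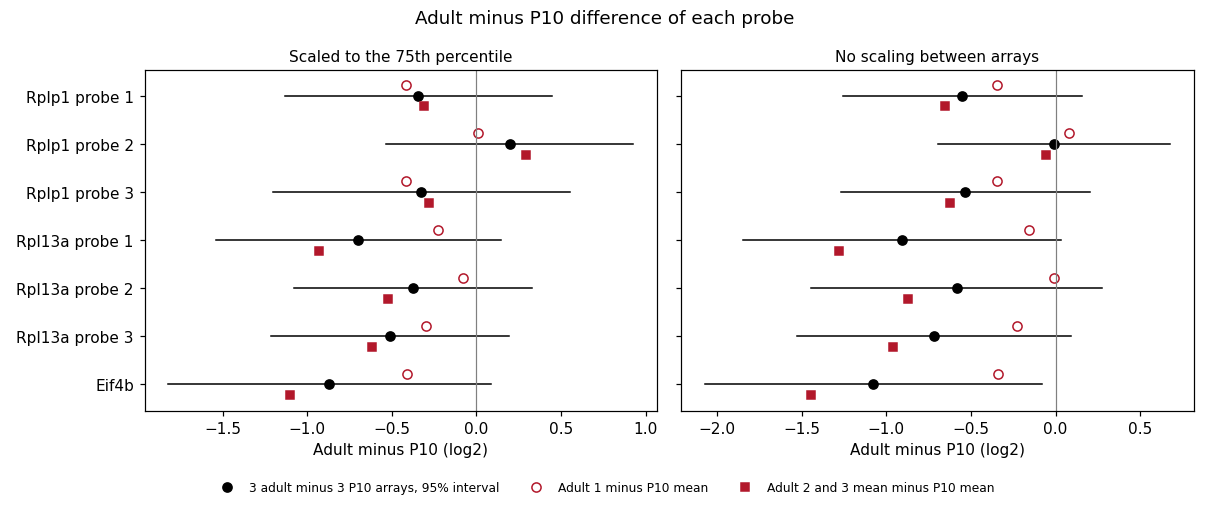
Adult minus P10 difference of each probe (log2) with scaling to the 75th percentile (left) and with no scaling between arrays (right). Black points and lines are the limma estimate over 3 adult and 3 P10 arrays with its 95% interval, open circles are Adult 1 and squares are the mean of Adult 2 and Adult 3, each minus the P10 mean. The squares lie further below 0 than the circles for Eif4b and Rpl13a on both scales, and the interval excludes 0 only for unscaled Eif4b.

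The ratio of 2 probes of 1 gene on the same array does not depend on the scale factor of that array. It can still change with background correction or quantile normalization, and was computed on the processed signal alone. Only the change of the ratio between arrays is read here. Rplp1 probes 1 and 3 kept nearly the same ratio, which varied by 0.24 on the log2 scale over the 6 arrays. Rplp1 probe 1 minus probe 2 was -0.71, -0.87 and -0.90 in Adult 1, Adult 2 and Adult 3, against -0.56, -0.23 and -0.05 in P10 1, P10 2 and P10 3. Every adult array lay below every P10 array, Adult 1 of slide 1 included. Such ratios were not computed for other genes with several probes, so how usual this is on these arrays is not known. The difference of the means was -0.54 (exact permutation test, two-sided, p = 0.1, the smallest possible, and 0.2 after Benjamini-Hochberg adjustment over the 6 probe pairs).

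Probe 2 minus probe 3 of Rplp1 was likewise higher in all 3 adult arrays, by 0.52 in the mean (exact permutation p = 0.1, adjusted 0.2), though Adult 1 (1.769) and P10 1 (1.767) were almost equal. Probe 2 is part of both of these Rplp1 pairs, so they are not separate observations. All 3 Rplp1 probes carry the same transcript identifier. In Rpl13a, probe 1 minus probe 2 was -0.63, -0.91 and -0.86 in Adult 1, Adult 2 and Adult 3, against -0.60, -0.29 and -0.55 in the P10 arrays, a difference of -0.32 (exact permutation p = 0.1, adjusted 0.2). Adult 1 lay just below the lowest P10 array there. The other Rpl13a pairs overlapped between ages, with differences of -0.19 and 0.13 (exact permutation p = 0.3 each, adjusted 0.36).

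**Figure D4:**
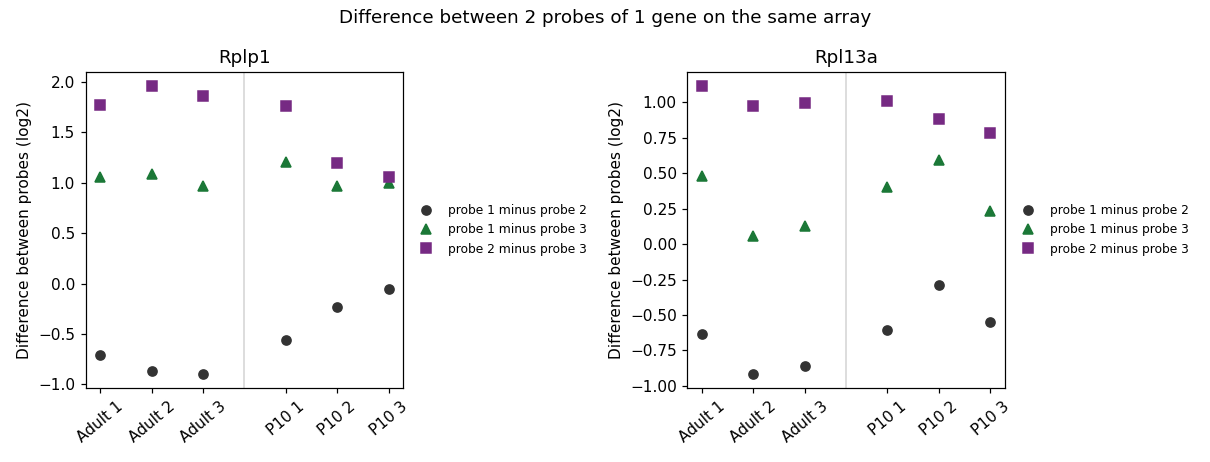
Difference between the log2 signals of 2 probes of the same gene on the same array, for Rplp1 (left) and Rpl13a (right), with the adult arrays left of the P10 arrays. For Rplp1, probe 1 minus probe 2 lies between -0.90 and -0.71 in adult arrays and between -0.56 and -0.05 in P10 arrays, whereas probe 1 minus probe 3 varies little.

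Likeness of pattern was measured as the root mean square difference between the levels of 2 probes over the 6 arrays, after each probe's own mean was taken off. Among the 7 probes, the most alike were Rplp1 probes 1 and 3 (0.08) and Rpl13a probes 2 and 3 (0.10), and the least alike were Rplp1 probe 2 and Eif4b (0.68). Eif4b was closer to Rpl13a probe 1 (0.26) than to any Rplp1 probe (between 0.40 and 0.68).

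Of 37 other detected probes with a gene name, an Actb probe (CUST_10_PI422140147), which reads the cytoskeletal beta-actin, was among the 3 most alike for 6 of the 7 probes. It was at 0.22 from Rplp1 probes 1 and 3, between 0.26 and 0.29 from the Rpl13a probes and at 0.35 from Eif4b, where Dlg4, a scaffold protein of synapses, was nearest (0.33). Probes of Hsp90ab1, a cytosolic chaperone, were among the 3 nearest for the Rpl13a probes and for Eif4b (between 0.22 and 0.45). For Rpl13a probe 1 the third was Trim2, a ubiquitin ligase (0.47). Rplp1 probe 2 was closest to Pdk3, a kinase of pyruvate dehydrogenase (0.07), Pgk1, a glycolytic enzyme (0.13), and Sdha, a subunit of succinate dehydrogenase (0.15). Pdk3 and Sdha also stood among the 3 nearest for Rplp1 probes 1 and 3, between 0.34 and 0.39. The median distance to the 37 probes was between 0.52 and 0.80. How often the Actb probe ranks among the 3 nearest of other probes was not computed.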

How the data were processed

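One-colour Cy3 arrays were hybridised for 3 adult and 3 P10 samples. Titles of the samples gave groups and numbers. The deposited spot intensity values came from Agilent Feature Extraction 11.0.1.1, per the file headers, background-subtracted and not normalized between arrays. The deposited log2 value table (18540 piRNA probes, normalization not given in the sources used here) holds 0 of the 7 probes. Control spots and outlier-marked spots were left out, and between 8 and 10 spots per probe and array remained. A probe of 10 spots counted as detected if over 50% of its spots were well above background. Probes detected in all 3 samples of either age entered 1 fit with limma 3.58.1 in R 4.3.3 (lmFit, eBayes), adjusted over all of them and checked on simulated data. The number of arrays limits the precision. Of 89 transcript probes, 61 matched a RefSeq symbol of GRCr8. The files hold no mean spot signal, so normexp used the median signal. Figures were drawn with matplotlib 3.10.9. Named genes are the 7 probes, other genes of the translation list (none matched on the array) and, per probe, the 3 named transcript probes most alike. Members and lists were chosen with earlier results of these data known. Alternatives covered background, scaling, filter, spot summary, slide, replicate block and arrays left out. The probe pairs, the unscaled fit, the second normexp fit and the fit without both arrays numbered 1 were added after seeing the data.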

Additional observations from a re-analysis of the deposited data

How the results depend on the processing

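No member probe was called under 21 of the 22 alternatives (limma), and 1 (Eif4b) was called without both arrays numbered 1. Rplp1 probe 2 turned negative with normexp (-0.32), with quantile normalization (-0.11) and without scaling (-0.010), and the cause was not tested. The other 6 probes kept their negative sign. Over all probes 725 were called. The number fell to 67 with normexp, to 0 with cyclic loess, without a filter and without scaling, to 1 with the slide as a block and on slide 1 alone, and to 6 where the 10-spot probes were fitted apart (81 probes). It was 3646 without both arrays numbered 1 and between 0 and 2078 with 1 array left out. It was 0 without P10 2, P10 3, Adult 2 or Adult 3, 1776 without P10 1 and 2078 without Adult 1. The alternatives with 0 calls had between 2166 and 5165 probes at an unadjusted p below 0.05 (limma), including 3320 with cyclic loess. With the replicate block 0 probes were called and 3185 had an unadjusted p below 0.05. Arrays of the same number deviated from the mean of their age at r = -0.04, 0.24 and -0.23 for numbers 1, 2 and 3. For adult and P10 arrays of different number, r was between -0.23 and 0.31. Each r is taken across probes, so whether arrays of the same number share more than that number was not tested. Spots of Adult 1 had a local background of up to 40397. The normexp fit gave this array a noise SD of 580, against 0.58 to 14.1 on the other arrays. With spots of uneven background left out, that SD was 0.70, 515 probes were called, and Eif4b differed by -0.81 and Rplp1 probe 2 by 0.08.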
